A study of Mus musculus with 241 samples.

Results

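The 8 genes described here carry or restrain the signal that common gamma chain cytokines send through STAT5: the kinase genes Jak1 and Jak3, the transcription factor genes Stat5a and Stat5b, and the feedback inhibitor genes Cish, Socs1, Socs2 and Socs3. They were taken by symbol, and all 8 were present among the 24506 genes of the bulk table, the 43346 genes of the C1 table and the 27998 genes of the 10x matrices. All cells were mouse thymocytes of the C57BL/6 strain, negative for lineage markers and for the dead-cell dye 7AAD, with surface CD44 and Kit. The 12 bulk libraries came from Bcl11byfp/yfp mice, in which both Bcl11b alleles carry a yellow fluorescent (YFP) reporter, so every bulk population shares that genotype. The sorted populations were CD25- Flt3+ early T-cell progenitors (Flt3+ ETP, 2 libraries), CD25- Flt3- progenitors (Flt3- ETP, 2 libraries), the undivided CD25- gate (total ETP, 2 libraries), CD25+ YFP- cells (Bcl11b- DN2a, 3 libraries) and CD25+ YFP+ cells (Bcl11b+ DN2a, 3 libraries). Cells of C57BL/6 mice from the same thymic window were also profiled singly, in 2 droplet (10x) libraries and with the microfluidic C1 system. No treatment was applied to any sample, and the animals' ages are not given in the sources used here.

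Interleukin 7 and related cytokines bring together receptor chains that hold JAK1 and JAK3, and the activated kinases phosphorylate STAT5 proteins, which then enter the nucleus and bind DNA. STAT5A and STAT5B are close paralogs that switch on survival and growth genes, and also genes for inhibitors that damp the same pathway. CIS, the product of Cish, and SOCS2 act mainly at receptors, whereas SOCS1 and SOCS3 can block the kinases themselves, and interleukin 7 signalling is a known requirement of early thymocytes.

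STAT5 binds the palindrome TTCNNNGAA, and its presence near the start sites of the 8 genes was read from RefSeq promoter windows of the GRCm38.p6 build (mm10), which run from 250 bases before to 50 bases after a start. For 7 of the genes a window was found, with 9 windows in all, because Stat5a and Stat5b have more than 1; no window was searched for Socs2. Among the windows searched, the palindrome, which reads the same on both strands, occurred in those of Cish and Socs3 only. The Cish window held 2 copies, at bases 1 and 12 of the transcript, 2 bases apart. The Socs3 window held 1, upstream of the start, inside the stretch from 200 to 81 bases before it. Of 32851 mouse promoter windows, 8.3% held at least 1 copy and 0.457% held 2 or more. A match describes letters and is not evidence of binding. The stretches that hold the matches are shown because they set Cish and Socs3 apart from the other windows, with the palindrome in capitals. The Cish stretch is chr9:107296559-107296678 on the plus strand and the Socs3 stretch is chr11:117969447-117969566 on the minus strand, both written 5′ to 3′.
Cish: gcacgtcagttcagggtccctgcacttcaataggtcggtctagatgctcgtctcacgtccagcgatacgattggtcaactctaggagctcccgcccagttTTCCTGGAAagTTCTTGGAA
Socs3: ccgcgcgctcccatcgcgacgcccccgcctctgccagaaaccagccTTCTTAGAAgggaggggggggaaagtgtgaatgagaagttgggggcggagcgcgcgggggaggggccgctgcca

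The bulk values are FPKM, reads scaled to gene length and library size, and rest on 21206693 to 38536150 reads on gene models per library. Of these libraries, 8 were made with NEBNext Ultra and 4 with SMART-Seq v4, which amplifies cDNA, followed by Nextera XT. By their library numbers they fall into a first NEBNext series (Flt3+ ETP, Flt3- ETP and both DN2a populations, 1 library each), a second NEBNext series (both total ETP libraries and 1 library of each DN2a population) and a SMART-Seq series (1 library of every population except total ETP). Whether each library had its own mice is not stated, so the p-values here reflect variation from library to library, and that variation may be technical. A list of 6 ETP marker genes (Flt3, Cd34, Lmo2, Spi1, Mef2c, Bcl11a) summed to 293 FPKM or more in every ETP library. Its sum was 173.9 FPKM or less in every DN2a library. Bcl11b, whose reporter split DN2a, stood at 5.76 and 4.54 FPKM in first-series Flt3+ and Flt3- ETP. It stood at 0.028 to 0.167 FPKM in the other ETP libraries and at 6.11, 3.08 and 0.596 FPKM in Bcl11b- DN2a. In Bcl11b+ DN2a it was 16.1 FPKM or more. Il2ra, the CD25 gene, was 17.5 and 18.4 FPKM in those first-series ETP libraries and 1.02 to 10.6 FPKM in other ETP. Every DN2a library held more Il2ra. Flt3 was 19.3 and 24.9 FPKM in Flt3- ETP, against 78.5 and 61.9 FPKM in Flt3+ ETP. Markers of other cells, and CD3 genes, also moved with population. A list of 9 granulocyte genes summed to 343 and 724 FPKM in Flt3- ETP, 16.1 and 11.2 FPKM in Flt3+ ETP, 102.15 and 109.08 FPKM in total ETP and at most 2.14 FPKM in DN2a. Of 7 genes of CD3-bearing T cells in the table, summed levels were 95.1 and 72.2 FPKM in the first-series Flt3+ and Flt3- ETP libraries, and 5.03 to 12.5 FPKM in the other ETP libraries. That sum was 43.3, 14.3 and 14.3 FPKM in Bcl11b- DN2a and 105.42, 72.2 and 128.33 FPKM in Bcl11b+ DN2a. A list of 4 mast cell and basophil genes was higher at each later stage within each series, with 179.56, 272.5 and 901.19 FPKM in Bcl11b+ DN2a and 108.54, 135.53 and 510.4 FPKM in Bcl11b- DN2a, against 17.84 to 264.83 FPKM in ETP. In DN2a most of that sum was Cpa3, and Ms4a2, which encodes the mast cell IgE receptor beta chain, was at most 0.069 FPKM. Mcpt8 stood at 1.95, 4.14 and 20.4 FPKM and Gzmb at 7.86, 4.48 and 8.23 FPKM in Bcl11b- DN2a. Both were lower in Bcl11b+ DN2a, at 0.224, 0.248 and 3.99 FPKM and at 3.05, 1.04 and 3.76 FPKM. In first-series Flt3+ ETP, Cpa3 was 8.67 FPKM and Gzmb 8.73 FPKM. A list of 4 erythroid genes, nearly all Hbb-bs, summed to 61.1 to 294.58 FPKM in DN2a and 13.88 to 107.94 FPKM in ETP. The part of the granulocyte, mast cell and erythroid lists in the differences below was not tested in bulk. Nor was the part of cells behind the Bcl11b, Il2ra and Flt3 levels of the ETP libraries.

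The kit moved the measured levels of several of the genes more than the populations did. On the log2(FPKM + 1) scale, SMART-Seq libraries lay below NEBNext libraries by a difference of -1.98 for Jak3, -1.87 for Stat5b, -1.61 for Stat5a and -1.12 for Socs3, and above them by 1.2 for Socs2 and 0.73 for Socs1. Jak1, at -0.21, and Cish, at -0.2, differed little, and the median over all genes tested was 0.01. Levels are therefore compared within a series, or in a single limma fit of log2(FPKM + 1) over all 12 libraries with population and kit as terms. A gene was called when its Benjamini-Hochberg adjusted p over the 12112 genes tested was below 0.05, and all 8 genes passed the filter of more than 1 FPKM in at least 2 libraries.

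**Figure D1:**
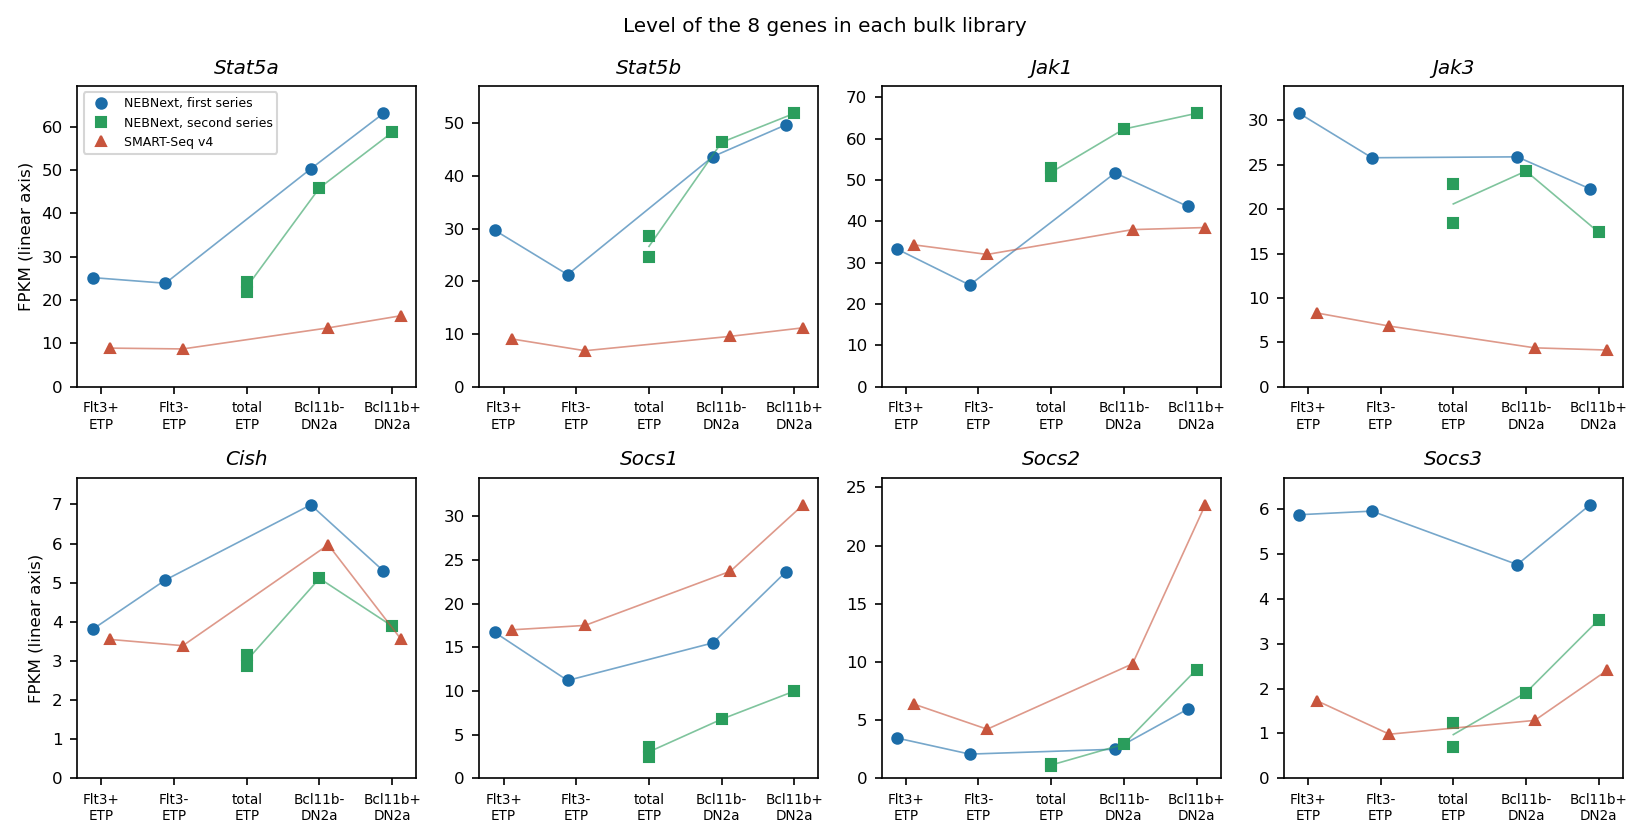
FPKM of each of the 8 genes (linear y axes, each with its own range) in the 12 bulk libraries, by sorted population; each point is a library, its shape and colour give the series, and lines join a series through its mean in each population. Stat5a, Stat5b and Jak3 sit far lower in the SMART-Seq series than in both NEBNext series, while Socs2 peaks in Bcl11b+ DN2a in all 3 series, at 5.95, 9.35 and 23.5 FPKM.

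Among NEBNext libraries, levels per length of gene model could be set side by side. Jak1 (24.6 to 66.1 FPKM), Stat5a (21.9 to 63.1 FPKM), Stat5b (21.3 to 51.9 FPKM) and Jak3 (17.4 to 30.8 FPKM) formed an upper group by FPKM. Socs1 (2.44 to 23.6 FPKM), Socs2 (1.09 to 9.35 FPKM), Cish (2.88 to 6.99 FPKM) and Socs3 (0.707 to 6.09 FPKM) reached lower, although the top of the Socs1 range passed the bottom of the Jak3 range. Each gene's range in this order overlapped that of its neighbours.

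Counted over the comparisons, calls among the 8 genes lay mostly on the side of the later stage. In Flt3- ETP against Flt3+ ETP, 0 of 8 were called by limma, where 0.685% of all genes tested were called (0.421% higher and 0.264% lower), and Stat5b alone had an unadjusted p below 0.05, at 0.0449. edgeR and DESeq2 on recovered reads also called 0 of 8. In Bcl11b- DN2a against Flt3- ETP, 2 of 8 were higher and 0 lower, against 3.97% of all genes called, 1.62% higher and 2.35% lower. In Bcl11b+ against Bcl11b- DN2a, 1 of 8 was higher and 0 lower, against 2.79% of all genes called, 1.15% higher and 1.64% lower. With a replicate block by library series, which pairs these libraries, the 8 genes again gave 1 call, against 5.63% of all genes. In Bcl11b- DN2a against total ETP, 6 of 8 were higher and 0 lower, against 15.6% of all genes called, 9.78% higher and 5.87% lower. Between the ends of the series, Bcl11b+ DN2a against Flt3+ ETP, 2 of 8 were higher and 1 was lower, against 11.3% of all genes called, 3.41% higher and 7.9% lower. The median differences of the 8 genes in these 5 comparisons were -0.25, 0.5, 0.25, 0.89 and 0.39 on the log2(FPKM + 1) scale, beside -0.15, 0.12, -0.04, 0 and -0.03 for all genes tested. The comparisons share populations, so their counts are not independent. In bulk RNA, fewer cells with a transcript and less transcript per cell cannot be told apart.

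**Figure D2:**
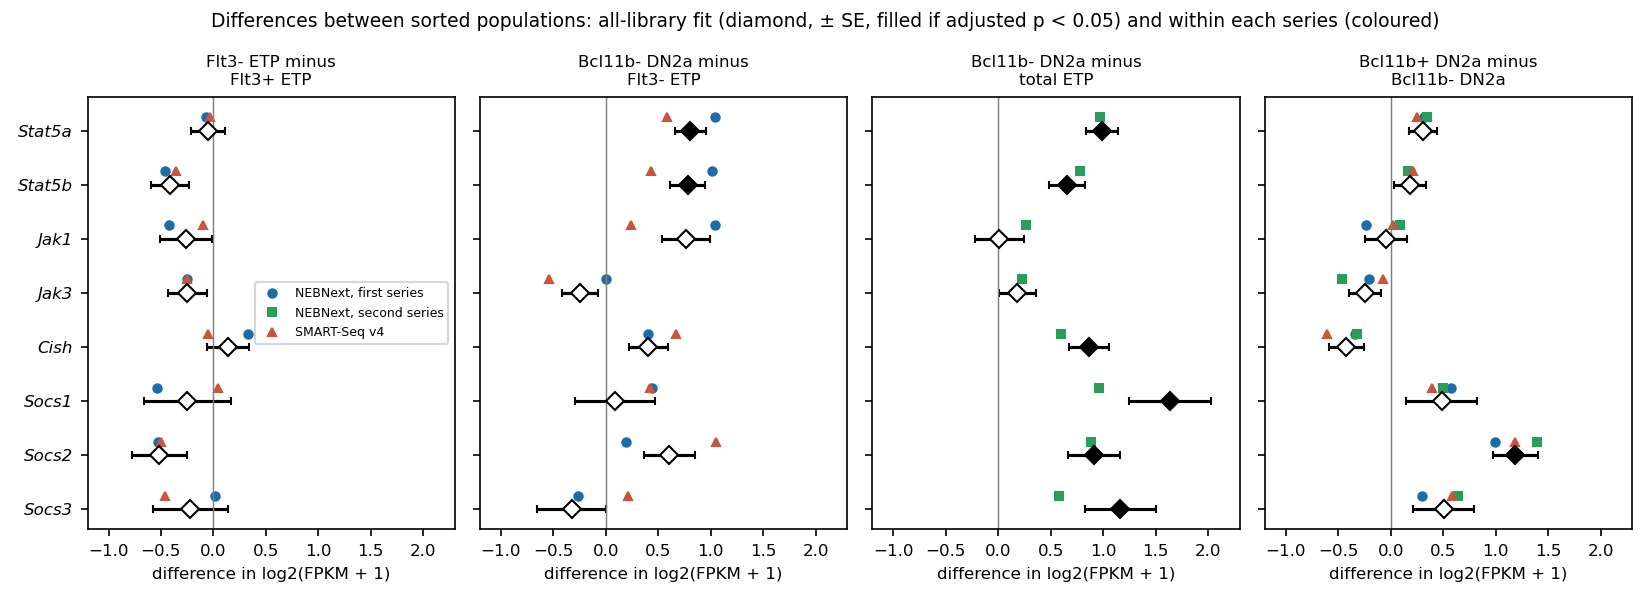
Differences in log2(FPKM + 1) between sorted populations (x axes), later stage minus earlier, for the 8 genes (rows). Diamonds are the estimates of the fit over 12 libraries with their SE, filled where the adjusted p was below 0.05, and coloured points are differences within a series; Stat5a and Stat5b are filled in both comparisons of Bcl11b- DN2a with ETP, and Socs2 alone is filled between the DN2a populations.

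The STAT5 genes were higher on entry into DN2a. Stat5a (chromosome 11, 100860484 to 100885169, plus strand) stood at 25.2 FPKM in Flt3+ ETP, 23.9 FPKM in Flt3- ETP, 50.3 FPKM in Bcl11b- DN2a and 63.1 FPKM in Bcl11b+ DN2a in the first series. In the second series it stood at 24.2 and 21.9 FPKM in total ETP, 45.9 FPKM in Bcl11b- DN2a and 58.7 FPKM in Bcl11b+ DN2a, and in the SMART-Seq series at 8.93, 8.74, 13.6 and 16.4 FPKM in Flt3+ ETP, Flt3- ETP, Bcl11b- DN2a and Bcl11b+ DN2a. Within each series every DN2a library lay above every ETP library, with Bcl11b+ above Bcl11b- DN2a. Bcl11b- DN2a exceeded Flt3- ETP by 0.81 ± 0.149 (log2, SE; adjusted p = 0.0116), with FPKM ratios of 2.11 in the first series and 1.56 in the SMART-Seq series. Against total ETP the difference was 0.99 ± 0.152 (adjusted p = 0.00278), and Bcl11b+ DN2a exceeded Flt3+ ETP by 1.06 ± 0.149 (adjusted p = 0.000616). Between the DN2a populations the step was 0.31 ± 0.132 and was not called (adjusted p = 0.388), although its sign was the same in 3 of 3 series, at 0.32, 0.35 and 0.25. The first of these calls was lost without the first-series Flt3- ETP library (0.63, adjusted p = 0.211) and without the first-series Bcl11b- DN2a library (0.75, adjusted p = 0.0502), within a range over 21 alternatives of 6.1e-07 to 1. The call against total ETP was lost without the lower of the total ETP libraries, replicate 2 (0.92, adjusted p = 0.0565; range 1.03e-13 to 0.917). The call between the ends of the series was kept without any single library.

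Stat5b (chromosome 11, 100780731 to 100850585, minus strand) lies head to head with Stat5a, 9898 bases apart. Its levels were 29.7, 21.3, 43.7 and 49.7 FPKM in Flt3+ ETP, Flt3- ETP, Bcl11b- DN2a and Bcl11b+ DN2a of the first series, and 9.07, 6.85, 9.58 and 11.2 FPKM in the same populations of the SMART-Seq series. The second series held 28.7 and 24.6 FPKM in total ETP, 46.4 FPKM in Bcl11b- DN2a and 51.9 FPKM in Bcl11b+ DN2a. Flt3- ETP was thus the lowest population in both series that include it, and Bcl11b+ DN2a the highest in all 3. Bcl11b- DN2a exceeded Flt3- ETP by 0.78 ± 0.168 (adjusted p = 0.0245) and total ETP by 0.66 ± 0.172 (adjusted p = 0.0296). The difference of Bcl11b+ DN2a from Flt3+ ETP, 0.55 ± 0.168, was not called (adjusted p = 0.0589), nor was that from Bcl11b- DN2a, 0.18 ± 0.149 (adjusted p = 0.846). The first of these passed in 7 of 21 alternatives, among them edgeR (0.65, adjusted p = 0.0059), DESeq2 (0.69, adjusted p = 6.06e-06) and without either Flt3- ETP library (0.54 each, adjusted p = 0.039 and 0.0381; range 6.06e-06 to 1). Flt3- ETP differed from Flt3+ ETP by -0.41 ± 0.183 (adjusted p = 0.279), with values of -0.46 and -0.36 within the first and SMART-Seq series. Against Flt3- ETP the call was lost without the first-series Flt3- ETP library (0.53, adjusted p = 0.427) or the first- or second-series Bcl11b- DN2a library (0.76 and 0.72, adjusted p = 0.088 and 0.0757; range over 21 alternatives 4.24e-06 to 1). Against total ETP it was lost without either total ETP library (0.76 and 0.55, adjusted p = 0.0798 and 0.282) or the first- or second-series Bcl11b- DN2a library (0.63 and 0.58, adjusted p = 0.127 and 0.0532; range 5.43e-06 to 0.994). Stat5a and Stat5b are near-identical over part of their coding sequence, so reads may have been split between them. Beside these steps, the granulocyte list fell to 1.83, 2.14 and 2.02 FPKM in Bcl11b- DN2a, against 343 and 724 FPKM in Flt3- ETP and 102.15 and 109.08 FPKM in total ETP; Retnlg was at 0 in 10 of 12 libraries, and Elane and Prtn3 held most of the sum.

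The kinase genes moved differently from each other. Jak1 (chromosome 4, 101151974 to 101265282, minus strand), which encodes the kinase bound to the interleukin 7 receptor alpha chain, stood at 33.3, 24.6, 51.7 and 43.6 FPKM in Flt3+ ETP, Flt3- ETP, Bcl11b- DN2a and Bcl11b+ DN2a of the first series. In the SMART-Seq series the same populations held 34.3, 32, 38 and 38.5 FPKM. Total ETP held 50.9 and 52.8 FPKM, beside 62.3 FPKM in Bcl11b- DN2a and 66.1 FPKM in Bcl11b+ DN2a. Within the second series both total ETP libraries were thus below both DN2a libraries. Bcl11b- DN2a lay above Flt3- ETP by 0.77 ± 0.229, which was not called (adjusted p = 0.0858), and the size differed between series, 1.04 in the first and 0.24 in the SMART-Seq series. It was called in 6 of 21 alternatives, among them without the SMART-Seq Flt3- ETP library (1.11, adjusted p = 0.0195) and without the second-series Bcl11b+ DN2a library (0.78, adjusted p = 0.0297; range 0.00913 to 1). Against total ETP the difference was 0.01 ± 0.233 in the fit (adjusted p = 0.979) and 0.26 within the second series, and between the DN2a populations -0.05 ± 0.203, neither of them called. The Jak1 model overlaps that of Raver2 on the opposite strand, and no strand option stands in the counting command of the header, so reads in the overlap cannot be told apart.

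Jak3 (chromosome 8, 71676383 to 71688313, plus strand), which encodes the kinase bound to the common gamma chain, was highest in Flt3+ ETP in both series that include that population, and lowest in Bcl11b+ DN2a in all 3. Its levels were 30.8, 25.8, 25.9 and 22.3 FPKM in Flt3+ ETP, Flt3- ETP, Bcl11b- DN2a and Bcl11b+ DN2a of the first series, and 8.32, 6.84, 4.39 and 4.14 FPKM in the SMART-Seq series. Second-series values were 22.8 and 18.4 FPKM in total ETP, 24.3 FPKM in Bcl11b- DN2a and 17.4 FPKM in Bcl11b+ DN2a. Bcl11b+ DN2a lay below Flt3+ ETP by a difference of -0.74 ± 0.173 (adjusted p = 0.0167), with -0.45 in the first and -0.86 in the SMART-Seq series. That call was lost without either Flt3+ ETP library (-0.88 without the first-series and -0.61 without the SMART-Seq library, adjusted p = 0.0675 and 0.155) and without the SMART-Seq Bcl11b+ DN2a library (-0.72, adjusted p = 0.0751; range over 21 alternatives 0.00145 to 1). None of the single steps along the series was called, and the step between the DN2a populations was -0.24 ± 0.153 (adjusted p = 0.688), negative in 3 of 3 series.

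Cish (chromosome 9, 107296659 to 107302784, plus strand), the feedback gene with the paired palindrome shown above, peaked in Bcl11b- DN2a in every series. It stood at 3.81, 5.07, 6.99 and 5.30 FPKM in Flt3+ ETP, Flt3- ETP, Bcl11b- DN2a and Bcl11b+ DN2a of the first series and at 3.55, 3.39, 5.97 and 3.56 FPKM in the SMART-Seq series. In the second series it stood at 3.15 and 2.88 FPKM in total ETP, 5.11 FPKM in Bcl11b- DN2a and 3.89 FPKM in Bcl11b+ DN2a. Over all libraries Cish averaged 6.02 ± 0.944 FPKM in Bcl11b- DN2a and 3.02 ± 0.191 FPKM in total ETP (SD, n = 3 and 2), and the groups did not overlap. The difference was 0.86 ± 0.191 (adjusted p = 0.016). Against Flt3- ETP the difference was 0.40 ± 0.187 and not called (adjusted p = 0.204). Bcl11b+ DN2a lay below Bcl11b- DN2a by a difference of -0.43 ± 0.166, also not called (adjusted p = 0.312), with -0.34, -0.32 and -0.61 in the 3 series. Unlike Stat5a, Cish was thus not highest in Bcl11b+ DN2a; the difference between the patterns of the genes was not tested. The call against total ETP was lost without either total ETP library (0.91 and 0.82, adjusted p = 0.0727 and 0.178) and without the first-series Bcl11b- DN2a library (0.78, adjusted p = 0.0912; range over 21 alternatives 0.000542 to 0.415).

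Socs2 (chromosome 10, 95411490 to 95415283, minus strand) encodes an inhibitor best known for restraining growth hormone signalling. It was the only gene of the 8 that limma called between the DN2a populations. Stat5a, Stat5b, Socs1 and Socs3 were also higher in Bcl11b+ DN2a in 3 of 3 series, without a call. Socs2 stood at 3.46, 2.08, 2.50 and 5.95 FPKM in Flt3+ ETP, Flt3- ETP, Bcl11b- DN2a and Bcl11b+ DN2a of the first series. The second series held 1.19 and 1.09 FPKM in total ETP, 2.93 FPKM in Bcl11b- DN2a and 9.35 FPKM in Bcl11b+ DN2a, and the SMART-Seq series 6.36, 4.22, 9.84 and 23.5 FPKM in the same 4 populations as the first. Bcl11b+ DN2a was the highest population in all 3 series. The difference from Bcl11b- DN2a was 1.19 ± 0.216 (adjusted p = 0.0122), with FPKM ratios of 2.38, 3.19 and 2.39 in the first, second and SMART-Seq series. Socs2 was also higher in Bcl11b+ DN2a than in Flt3+ ETP, by 1.27 ± 0.243 (adjusted p = 0.00493), and in Bcl11b- DN2a than in total ETP, by 0.91 ± 0.248 (adjusted p = 0.0336). Between the DN2a populations the call was lost without the first-series Bcl11b- library (1.08, adjusted p = 0.075) and without the SMART-Seq Bcl11b+ library (1.03, adjusted p = 0.084; range over 21 alternatives 2.34e-05 to 1). Against Flt3+ ETP it was lost without the SMART-Seq Flt3+ ETP library (0.99, adjusted p = 0.0867; range 1.34e-05 to 1). Against total ETP it was lost without either total ETP library (0.94 and 0.88, adjusted p = 0.113 and 0.252) and without the first-series or SMART-Seq Bcl11b- DN2a library (1.03 and 0.79, adjusted p = 0.0803 and 0.0859; range 0.000357 to 0.598).

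Socs1 (chromosome 16, 10783809 to 10785536, minus strand) and Socs3 (chromosome 11, 117966087 to 117969366, minus strand) both depended on the series, but not in the same way. Socs1 was highest in the SMART-Seq series and Socs3 in the first series. Socs1 stood at 16.7, 11.2, 15.5 and 23.6 FPKM in Flt3+ ETP, Flt3- ETP, Bcl11b- DN2a and Bcl11b+ DN2a of the first series, and at 17, 17.5, 23.7 and 31.3 FPKM in the SMART-Seq series. In the second series it was lower throughout, with 3.62 and 2.44 FPKM in total ETP, 6.77 FPKM in Bcl11b- DN2a and 9.98 FPKM in Bcl11b+ DN2a. Socs3, which encodes the main inhibitor of interleukin 6 signalling, held 5.87, 5.95, 4.76 and 6.09 FPKM in those first-series populations and 1.73, 0.982, 1.29 and 2.41 FPKM in the SMART-Seq ones. Its second-series levels were 1.24 and 0.707 FPKM in total ETP, 1.91 FPKM in Bcl11b- DN2a and 3.53 FPKM in Bcl11b+ DN2a. Both genes were highest in Bcl11b+ DN2a in every series, but neither step between the DN2a populations was called in bulk: 0.49 ± 0.339 for Socs1 (adjusted p = 0.762) and 0.50 ± 0.293 for Socs3 (adjusted p = 0.638). At entry into DN2a, Bcl11b- DN2a differed from Flt3- ETP by 0.09 ± 0.382 for Socs1 (adjusted p = 0.889) and by -0.32 ± 0.33 for Socs3 (adjusted p = 0.528).

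Against total ETP, Bcl11b- DN2a was higher in Socs1 by 1.64 ± 0.39 (adjusted p = 0.0212) and in Socs3 by 1.16 ± 0.337 (adjusted p = 0.0408). Total ETP occurs only in the second series, and there, beside the second-series Bcl11b- DN2a library, the differences were smaller: 0.96 for Socs1 and 0.58 for Socs3, with FPKM ratios of 2.23 and 1.97. Stat5a (0.97 within the series) and Socs2 (0.88) kept the size of the fit, and Cish was at 0.6. The count of 6 genes was 0 without the second of the total ETP libraries, 1 without the first of them or without the first-series Bcl11b- DN2a library, and 3 without the SMART-Seq Bcl11b- DN2a library. Among ETP libraries Socs3 stood at 5.87 and 5.95 FPKM in first-series Flt3+ and Flt3- ETP and at 0.707 to 1.73 FPKM in the other 4. Those 4 are SMART-Seq or total ETP libraries, so series, kit and population cannot be told apart in this contrast. The first-series libraries also held the CD3 genes (Cd3g at 52.5 and 39.9 FPKM, against 0.71 to 5.42 FPKM in the other ETP libraries), and the part of CD3-bearing cells in the bulk Socs3 level was not tested.

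The 10x libraries allowed the same genes to be read in cells sorted by transcript instead of surface protein. After filters, 4878 and 8434 cells were kept, with medians of 8488 and 6137 UMIs (unique molecular identifiers, each counting 1 RNA molecule); the libraries shared 57 barcodes. Cells were put in classes by their UMIs: Il2ra and Bcl11b (1197 and 1933 cells in libraries 1 and 2), Il2ra without Bcl11b (1450 and 2088 cells), and Flt3 without Il2ra or Bcl11b (443 and 624 cells). Levels are given as CPM, a gene's UMIs scaled to 1000000 UMIs of its class and library. UMIs were summed per library and class and tested with edgeR's quasi-likelihood test, with class and library as terms. The tests rest on 2 libraries, each giving all classes. Their titles name no animals, so the variation behind these p-values may be technical. The 3 genes that define the classes are not results, and counting intervals cover counting error only.

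In the step nearest to entry into DN2a, Il2ra cells without Bcl11b against Flt3 cells, 5 of 8 genes were higher and 0 lower, where 20.1% of all genes tested were called, 8.59% higher and 11.5% lower. Stat5a reached 37.5 and 42.2 CPM in the Il2ra class of libraries 1 and 2, against 22.3 and 22.2 in the Flt3 class, a difference of 0.76 ± 0.107 (log2, SE; adjusted p = 6.96e-08). Stat5b reached 26.4 and 30.1, against 18.8 and 18.4, a difference of 0.52 ± 0.121 (adjusted p = 0.000678). Jak1 reached 129.4 and 122.4, against 78.4 and 82.4, a difference of 0.57 ± 0.0644 (adjusted p = 1.8e-10). For each of these 3 genes both libraries moved the same way and the classes did not overlap, which also held for Socs3, below. The share of all genes for which this held was not counted. The Stat5b call was lost after thinning to equal UMIs (0.52, adjusted p = 0.129) and by DESeq2 (0.52, adjusted p = 0.0664; range over 7 alternatives 0.0002 to 0.129). Socs2 held 8.23 and 12.2 CPM in the Il2ra class, against 2.23 and 8.51 in the Flt3 class (0.85 ± 0.223, adjusted p = 0.00304), so that libraries differed in its level as much as classes did. Its call was lost without a replicate block (adjusted p = 0.286), with classes by 2 or more UMIs (0.49, adjusted p = 0.531) and by DESeq2 (adjusted p = 0.0674); the value ran from 0.49 to 1.73 over the 7 alternatives, with adjusted p from 0.000583 to 0.531. Socs3 held 5.79 and 6.63, against 2.90 and 4.03 (0.76 ± 0.264, adjusted p = 0.0314), from only 13 and 18 UMIs in the Flt3 class. Its call was lost in 5 of 7 alternatives (adjusted p over the 7 from 0.0275 to 0.976), and the bulk value at entry into DN2a, -0.32, has the opposite sign. Jak3 (-0.34 ± 0.178), Cish (0.31 ± 0.225) and Socs1 (0.00 ± 0.13) were not called, with adjusted p of 0.195, 0.375 and 0.987.

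**Figure D3:**
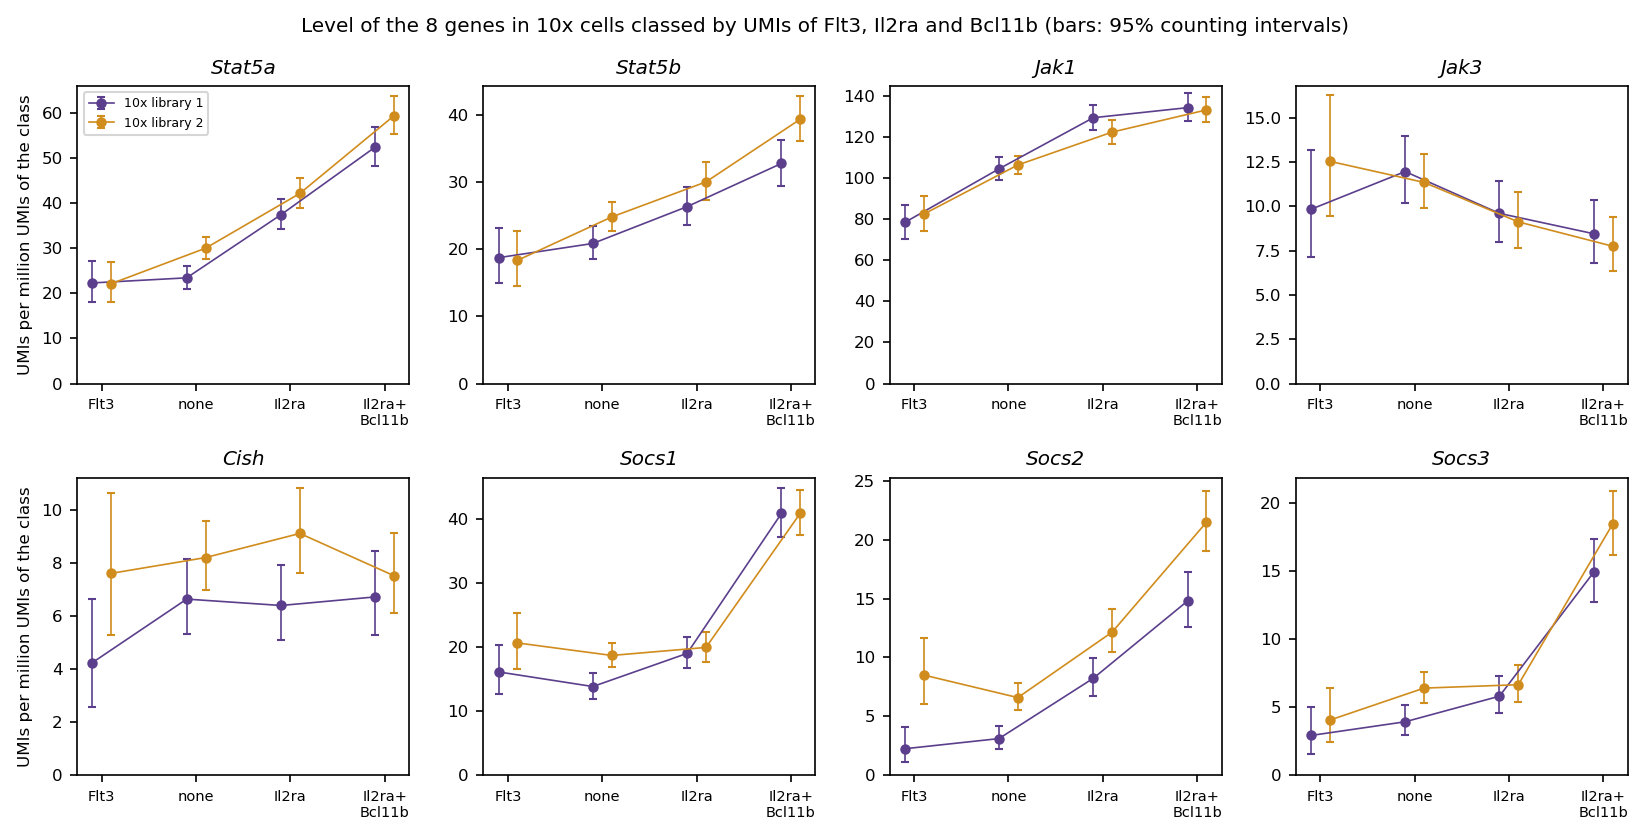
CPM (y axes, linear from 0) of the 8 genes in 4 classes of 10x cells, defined by UMIs of Flt3, Il2ra and Bcl11b, in each library; bars are 95% counting intervals. Socs1 sits at 19 and 19.9 in the Il2ra class and at 40.8 in both libraries of the Il2ra and Bcl11b class, while Stat5a climbs over the classes from left to right in both libraries.

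The step that mirrors Bcl11b activation, Il2ra cells with Bcl11b against Il2ra cells without it, again had 5 of 8 genes higher and 0 lower, where 25.8% of all genes tested were called, 12.3% higher and 13.5% lower. Inhibitor genes led it. Socs3 stood at 14.9 and 18.4 CPM, against 5.79 and 6.63, a difference of 1.39 ± 0.132 (adjusted p = 2.47e-13). Socs1 stood at 40.8 in both libraries, against 19 and 19.9 (1.03 ± 0.0801, adjusted p = 1.21e-16). Socs2 stood at 14.8 and 21.5, against 8.23 and 12.2 (0.80 ± 0.12, adjusted p = 2.32e-07). The STAT5 genes rose by less: Stat5a by 0.46 ± 0.0647 (adjusted p = 5.78e-08) and Stat5b by 0.32 ± 0.0763 (adjusted p = 0.000715). Cish (-0.17 ± 0.159), Jak3 (-0.25 ± 0.144) and Jak1 (0.05 ± 0.0465) were not called, with adjusted p of 0.493, 0.221 and 0.441. Socs2 was thus called between Bcl11b+ and Bcl11b- cells in bulk and in 10x libraries, and Socs1 and Socs3 in 10x libraries only, with the same sign in bulk.

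Some cells in the gate held CD3 transcripts, and Socs1 and Socs3 were high in them. Cells with UMIs of at least 2 CD3 chain genes numbered 518 and 1012, or 10.62% and 12% of kept cells, and they held 32.83% and 34.49% of all Socs3 UMIs and 22.86% and 25.28% of Socs1 UMIs. In such cells Socs3 stood at 29.6 and 35.9 CPM, against 5.61 and 7.25 in cells with neither CD3 nor granulocyte markers. Socs1 stood at 63 and 68.4, against 19.8 and 21.6 in the same cells. Stat5a was also higher there, at 51.0 and 59.7, against 34.2 and 39, whereas Socs2, at 7.40 and 14.6 against 7.70 and 12.5, had overlapping intervals in both libraries. Jak3 was at 6.03 and 5.51 in CD3 cells, against 10.3 and 10.1. CD3-gene cells had fewer UMIs, with medians of 5094 and 4031, against 8660 and 6301.

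Leaving out CD3-gene and granulocyte-marker cells cut the Il2ra and Bcl11b class from 1197 and 1933 cells to 807 and 1273. The Il2ra class without Bcl11b went only from 1450 and 2088 cells to 1419 and 2030. Whether the cells left out were later DN2a cells or another cell type was not tested. In the remaining cells the Bcl11b step was smaller for Socs1, at 0.65 (adjusted p = 4.79e-09), and for Socs3, at 0.89 (adjusted p = 6.17e-06). It was slightly larger for Socs2, at 0.99 (adjusted p = 4.71e-11), and close to the full value for Stat5a, at 0.47 (adjusted p = 2.55e-08). Jak1 was called in these cells, at 0.16 (adjusted p = 0.0112). Over the 7 alternatives the adjusted p ran from 1.44e-34 to 0.00023 for Socs1, from 4.54e-25 to 0.000452 for Socs3, from 2.8e-11 to 0.125 for Socs2, from 2.28e-10 to 0.0157 for Stat5a, from 0.000315 to 0.295 for Stat5b and from 0.0112 to 0.957 for Jak1. Calls were lost for Stat5b without a replicate block (adjusted p = 0.115) and by DESeq2 (adjusted p = 0.295), and for Socs2 without a replicate block (adjusted p = 0.125).

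Il2ra encodes the alpha chain of the interleukin 2 receptor and is itself known as a STAT5 target. The genes were therefore also read by Il2ra level, in cells thinned to 4000 UMIs. The bins took in all thinned cells, with or without Bcl11b UMIs or CD3 genes. Il2ra stood at 481 and 455 CPM in the Il2ra and Bcl11b class, against 330 and 366 without Bcl11b. The part of Bcl11b cells and CD3-gene cells in the levels by bin was not tested. In cells with 3 to 5 Il2ra UMIs, Stat5a stood at 45.8 and 59.5 CPM in libraries 1 and 2, against 29.2 and 32.2 in cells with 0. Socs2 stood at 13.7 and 20.4, against 3.15 and 9.73, and Socs1 at 39.5 and 29.2, against 16.6 and 20.9. For each of these 3 genes the 95% counting intervals of the 0 and 3 to 5 bins were apart in library 1, and for Stat5a and Socs2 in library 2 as well, whereas those of Socs1 in library 2 met. The level did not climb at each bin: in library 1 Stat5a stood at 49.67 in cells with 1 to 2 Il2ra UMIs. In that bin Socs1 stood at 26.49 and 30.2, with intervals apart from those of the 0 bin in both libraries. With 3 to 5 Il2ra UMIs, Jak1 stood at 140.8 and 140.6, against 111.3 and 108.3 with 0. Its intervals were apart in both libraries. For the other 4 genes the intervals of the 0 and 3 to 5 bins met in both libraries. Stat5b stood at 26.8 and 34.9, against 23.1 and 25.9, and Socs3 at 9.26 and 10.75, against 4.63 and 7.65. Cish stood at 5.36 and 9.60, against 6.39 and 7.77, and Jak3 at 8.29 and 8.83, against 9.63 and 11.45, in libraries 1 and 2. The bin of 1 to 2 Il2ra UMIs was larger, with 1359 and 2053 cells, against 513 and 651 in the 3 to 5 bin. There Socs3 stood at 10.12 and 11.57, with intervals apart from those of the 0 bin in both libraries. Stat5b stood at 30.54 and 32.88, apart from the 0 bin in library 2 only. Intervals of Cish and Jak3 met those of the 0 bin in both libraries. Cells with 6 or more Il2ra UMIs numbered 55 and 60, too few to place.

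Within the Il2ra cells without Bcl11b, those with Il7r, the interleukin 7 receptor alpha chain gene, were compared with those without. Socs2 stood at 13.1 and 21.6 CPM with Il7r, against 7.78 and 9.56 without, and the intervals were apart in library 2 only. Stat5a was at 41.7 and 58.1 with Il7r, against 44.5 and 39.96 without, so the libraries moved in opposite directions. No test was run on these splits.

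The C1 cells, read with SMART-seq2 chemistry over whole transcripts, were kept where at least 1000 genes were detected. Detection was taken as more than 1 FPKM. Jak1 was detected in 95% of cells, Stat5b in 56.8%, Stat5a in 51.8%, Jak3 in 30.2%, Socs1 in 18.5%, Cish in 17.1%, Socs2 in 10.8% and Socs3 in 5.41%. The labels name no animals, so these cells count as 1 sample, and shares carry exact (Clopper-Pearson) 95% intervals for counting error and no test. By library number the kept cells fall into 4 sets, of 92, 23, 12 and 95 cells. Cells with Il2ra and Bcl11b above 1 FPKM (29 cells) showed Socs2 in 31% (15.3 to 50.8), against 7.45% (3.05 to 14.7) of the 94 cells with Il2ra and without Bcl11b. These intervals did not overlap, though the Il2ra and Bcl11b cells also had more genes detected, a median of 5316 against 4507. By set, Socs2 was detected in 7 of 15 Il2ra and Bcl11b cells against 3 of 38 Il2ra cells without Bcl11b in the first, 0 of 5 against 1 of 5 in the second and 2 of 9 against 3 of 44 in the fourth, while the third held no Il2ra and Bcl11b cell. For Stat5b the shares were 82.8% (64.2 to 94.2) and 55.3% (44.7 to 65.6), and for Stat5a 69% (49.2 to 84.7) and 48.9% (38.5 to 59.5), with overlapping intervals. Cish was detected in 27.6% (12.7 to 47.2) and 12.8% (6.77 to 21.2) of the same classes, also with overlap. Socs1 was detected in 31% (15.3 to 50.8) and 18.1% (10.9 to 27.4). Socs3, which led the 10x step with CD3-gene cells included, was detected in 3.45% (0.0873 to 17.8) and 6.38% (2.38 to 13.4). These intervals overlapped widely and came from 1 and 6 cells. In the 33 cells with none of Flt3, Il2ra and Bcl11b, Stat5a was detected in 66.7% (48.2 to 82) and Stat5b in 63.6% (45.1 to 79.6). In the 65 cells with Flt3 alone these shares were 40% (28 to 52.9) and 44.6% (32.3 to 57.5). The STAT5 genes thus did not climb class by class in C1 cells. At least 2 feedback genes were detected in 24.1% of the Il2ra and Bcl11b cells and in 6.38% of the Il2ra cells without Bcl11b. None of the kept C1 cells held 2 or more of Cd3d, Cd3e and Cd3g, so the C1 classes carry no such cells. The 10x step nearer to them is the one without CD3-gene and granulocyte-marker cells. It was 0.89 for Socs3 and 0.99 for Socs2.

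**Figure D4:**
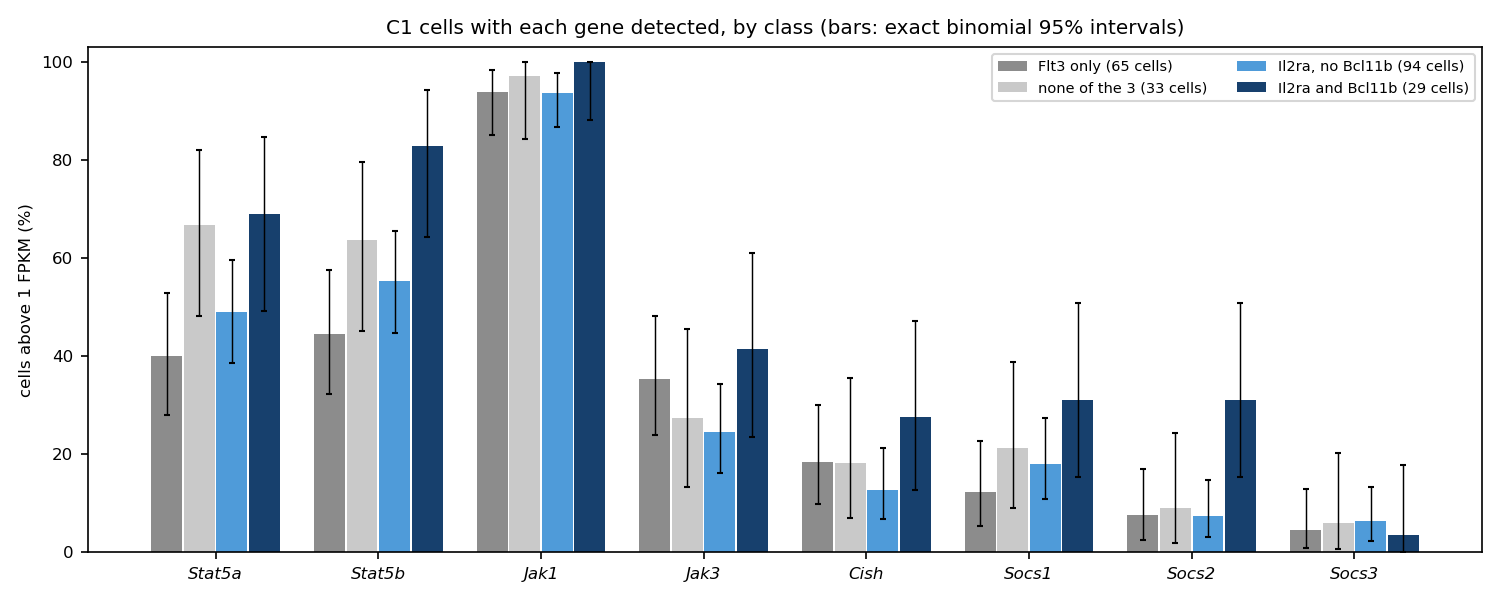
Share of C1 cells with more than 1 FPKM (y axes, percent) for each of the 8 genes in classes defined by Flt3, Il2ra and Bcl11b; bars are exact 95% intervals. Socs2 is detected in 31% of Il2ra and Bcl11b cells and in 7.45% of Il2ra cells without Bcl11b, while Jak1 is detected in nearly all cells of every class.

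Other genes of the pathway were read from lists of receptor chains, remaining Jaks and Stats, other inhibitors, and known STAT5 targets. At entry into DN2a in bulk (Bcl11b- DN2a against Flt3- ETP), 3.97% of all genes tested were called, 1.62% higher and 2.35% lower. Of 20 receptor chains tested, 2 were higher and 1 was lower. Il2ra, on which the gate was set, is one of the higher genes; the other is Il7r, by 2.11 ± 0.212 (adjusted p = 0.000324), and Ifngr2, an interferon gamma receptor chain gene, was lower by a difference of -2.09 ± 0.247 (adjusted p = 0.000896). Stat3 was the 1 gene called among 7 other Jaks and Stats (0.89 ± 0.18, adjusted p = 0.0181), and 0 of 15 other inhibitors were called. Of 11 STAT5 targets tested, 3 were higher and 1 lower: Pim1, a survival kinase gene, Ccnd3, a cyclin gene, and Bcl2, which blocks cell death, were higher by 1.04, 0.73 and 0.69, with adjusted p of 0.0133, 0.0125 and 0.0365. Bcl6, a repressor gene that STAT5 is known to silence, was lower by a difference of -1.09 (adjusted p = 0.00583).

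Between the DN2a populations in bulk, 2.79% of all genes tested were called, 1.15% higher and 1.64% lower. Il7r was higher in Bcl11b+ cells by a further 1.21 (adjusted p = 0.00522) and Ifngr1 by 0.81 (adjusted p = 0.00644). Csf2rb, the shared beta chain gene of interleukin 3 and GM-CSF receptors, was lower by a difference of -0.87 (adjusted p = 0.0319). None of the 7 other Jaks and Stats was called, and among 15 other inhibitors Sh2b3 alone was lower, at -0.68 (adjusted p = 0.0383). Of 11 targets, Bcl2 (1.38, adjusted p = 0.000463) and Ccnd3 (1.03, adjusted p = 0.00117) were higher and Bcl6 (-0.72, adjusted p = 0.0351) was lower. Bcl6, which STAT5 is known to silence, was thus the target called lower in both bulk steps.

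In the 10x libraries more of these genes were called. In Il2ra against Flt3 cells, 3 receptor chains of 18 tested were higher and 9 lower, 4 of 15 other inhibitors were higher and 0 lower, and 4 of 11 targets were higher and 1 lower. Of all genes tested in that step, 8.59% were called higher and 11.5% lower. Il7r (1.46, adjusted p = 5.88e-15), Stat3 (0.84, adjusted p = 7.03e-12), Pim1 (1.1, adjusted p = 4.01e-25) and Ifngr2 (-2.30, adjusted p = 3.57e-18) had the signs of the bulk step. Ccnd2, the target called lower (-0.42, adjusted p = 2.48e-10), had the opposite sign in bulk (0.59, adjusted p = 0.247). Bcl6 was lower without a call (-1.17, adjusted p = 0.0984), from 23 UMIs in the Il2ra class and 16 in the Flt3 class. In Il2ra cells with Bcl11b against those without, 4 receptor chains were higher and 9 lower, 2 other inhibitors were higher and 2 lower, and 3 targets were higher and 4 lower. Of all genes tested there, 12.3% were called higher and 13.5% lower. Bcl2 (1.47, adjusted p = 4.6e-27), Il7r (1.23, adjusted p = 9.11e-26), Ccnd3 (0.81, adjusted p = 1.29e-22) and Sh2b3 (-0.86, adjusted p = 6.58e-12) had the signs of the bulk step, while Pim1 was lower, at -0.21 (adjusted p = 5.47e-05). Over the 59 genes tested by both methods, 9 were called in bulk at entry into DN2a, all 9 with the same sign in the 10x step, and 8 of them were also called there. Between the Bcl11b classes 8 were called in bulk, and all 8 were called with the same sign in the 10x libraries, which called 31 of the 59. The same agreement was not computed over all genes, and the lists were chosen with earlier results of these data known. The bulk and 10x populations differ in genotype and in how they were defined, by protein or by transcript, and at entry into DN2a their baselines are opposite for Flt3: Flt3- ETP in bulk and cells with Flt3 UMIs in the 10x libraries.

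**Figure D5:**
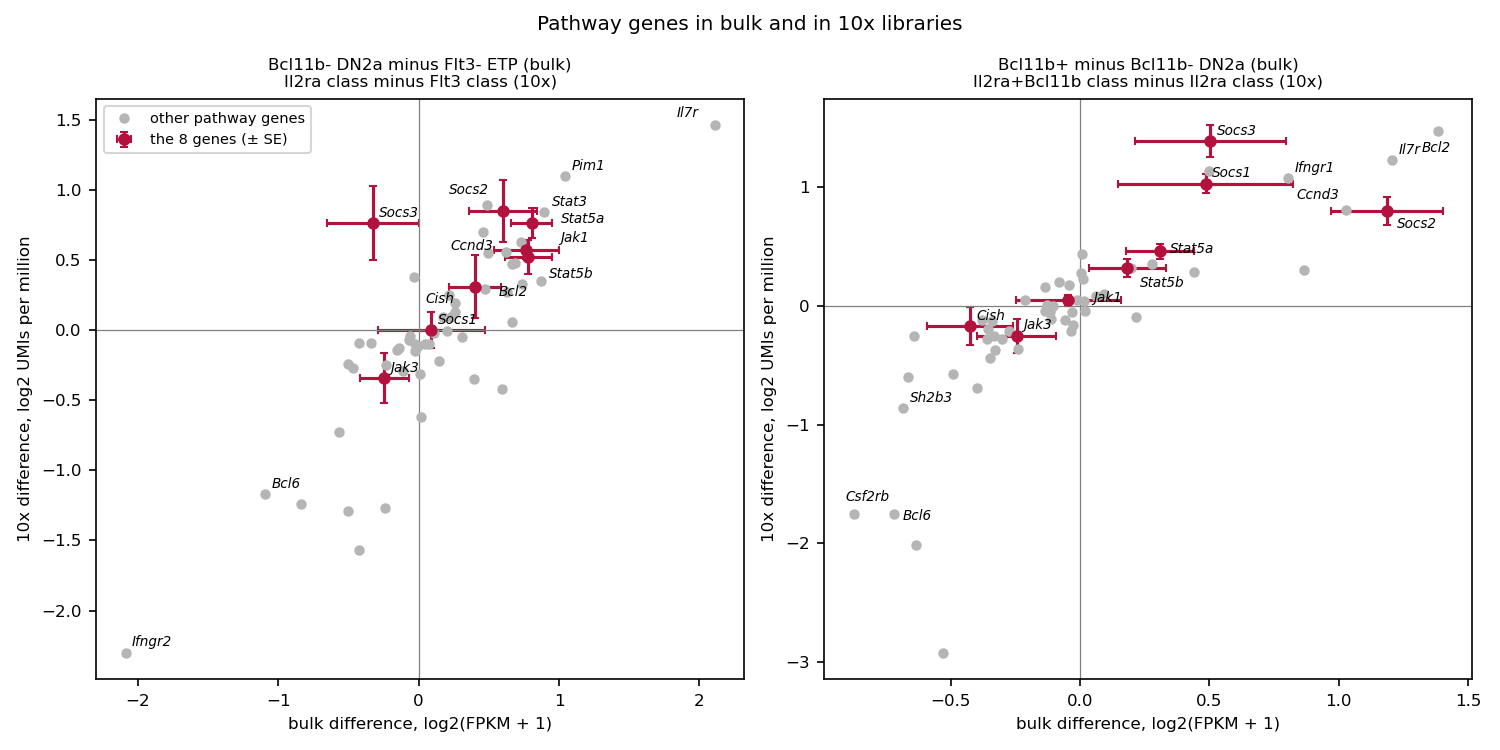
Bulk difference in log2(FPKM + 1) (x axes) against 10x log2 difference (y axes) for the genes of the pathway tested by both, at entry into DN2a and between Bcl11b classes; the 8 genes are marked by name. Socs2 lies at 1.19 in bulk and 0.80 in the 10x libraries for the Bcl11b step, and Stat5a at 0.81 and 0.76 for entry into DN2a.

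Across the 12 libraries, with kit means removed, Stat5a and Stat5b varied together (Pearson r = 0.94), as did Socs1 and Socs3 (r = 0.94), and Socs2 went with Stat5a (r = 0.8) and Stat5b (r = 0.75). Jak1 and Jak3 had r = -0.53. The libraries share populations and series, so these values only describe them. Of 11004 genes searched, those closest to Stat5a were Bdh1 (r = 0.991), Mast2 (0.986) and Cldn2 (0.98), and those closest to Stat5b were Rfc5 (0.977), Naa40 (0.977) and Cap1 (0.976). Socs2 was closest to Themis (0.977), Gbp4 (0.967) and Rasgrp1 (0.96), and Socs3 to Engase (0.985), Hist1h2al (0.973) and Basp1 (0.971). Socs1 was closest to Mrps11 (0.972), Notch3 (0.964) and Pfdn6 (0.964), Cish to Arhgef10l (0.942), Pnpla2 (0.932) and Hbegf (0.912), and Jak3 to Mgat4b (0.973), Glb1 (0.969) and Sipa1 (0.965).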

How the data were processed

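Bulk values are FPKM that the authors deposited; per the file headers, HOMER counted exon reads on mm10 gene models with genes condensed, and per the submitters' processing notes STAR 2.4.0, RSEM 1.2.25 and Cell Ranger 2.0 were among the tools. C1 values are likewise FPKM as deposited, and the 10x matrices hold UMI counts as deposited. The members and lists were chosen with earlier results of these data known.

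Bulk log2(FPKM + 1) was fitted with limma 3.58.1 (trend; R 4.3.3), population and kit as terms, over genes above 1 FPKM in at least 2 libraries, with Benjamini-Hochberg adjustment. For Bcl11b+ against Bcl11b- DN2a, deviations from the fit correlated at 0.508 to 0.823 in all 3 same-series pairs, against -0.644 to 0.359 in the 6 others, so library series, read from library numbers and kit, pair these samples. Whole reads were recovered from FPKM steps for edgeR 4.0.16 and DESeq2 1.42.0 as alternatives. The 10x cells needed 1000 genes and under 10% mitochondrial UMIs; no doublet caller was run, so doublets remain possible. UMI sums per library and class were tested with edgeR's quasi-likelihood test. C1 cells needed 1000 genes. Data were simulated for Bcl11b- DN2a against Flt3- ETP (12112 genes). There limma recovered 63% of genes changed by 1 log2 unit and 95.7% of those changed by 2, and 5.99% of its calls were false. Errors were drawn independently for each library, so correlation within a series was not simulated. The named pathway genes are those called, at most 4 a list by adjusted p in 10x comparisons. The genes alike in pattern are the 3 with the highest r per called gene. Alternatives covered pseudocount, filter, scaling, kit term, replicate block, tools, thinning, class rule and each library left out.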

Additional observations from a re-analysis of the deposited data

How the results depend on the processing

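Of 952 recomputed values of the 8 genes (56 values, each under its alternatives), 818 kept direction and side of the threshold, 74 lost a call, 17 gained one and 43 changed sign; none of the sign changes was of a called value. The cause of these changes was not tested. The number of the 8 genes called was as follows. For Bcl11b- DN2a against Flt3- ETP (2), it was 1 with no filter, 3 in NEBNext libraries alone, 3 with either replicate block, 3 by DESeq2, 0 without a kit term and 0 to 3 leaving out a library. For Bcl11b+ against Bcl11b- DN2a (1), it was 0 with no filter, without a kit term or in NEBNext libraries alone, 2 by DESeq2 and 0 to 1 leaving out a library. For Bcl11b- DN2a against total ETP (6), it was 1 with no filter, 0 without a kit term, 2 in NEBNext libraries alone and 0 to 6 leaving out a library. For Bcl11b+ DN2a against Flt3+ ETP (3), it was 0 without a kit term, 1 in NEBNext libraries alone, 5 with a replicate block by library-number series, 5 by DESeq2 and 1 to 4 leaving out a library. For Flt3- against Flt3+ ETP it was 0 throughout. In the first 10x step (5), it was 3 after thinning, 3 without a replicate block, 3 with classes by 2 or more UMIs and 2 by DESeq2; in the second (5), it was 3 without a replicate block. Outside the step between the DN2a populations, which library series pair, pairing could not be judged. The deviations of the 2 libraries of an ETP population mirror each other in the fit, which forces opposite signs. Over all populations, 8 of 17 same-series pairs and 11 of 19 same-number pairs correlated above 0.1, which does not decide the question. Outside that step the replicate block is given only as an alternative. In the paired step it left the call of Socs2 in place (1.19, adjusted p = 0.0044 by series and 0.00645 by number) and changed no other call of the 8 genes.

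The C1 share of Stat5b was 65.3% above 0 FPKM and 45% above 5 FPKM, and that of Jak3 23% above 5 FPKM. Uncalled differences changed sign as follows, with the range over libraries left out in turn given last. In Flt3- against Flt3+ ETP, Stat5a was 0.09 with quantile normalization, 0.14 by edgeR, 0.12 by DESeq2 and -0.22 to 0.11, and Socs3 was 0.02 in NEBNext libraries alone and -0.66 to 0.22; Socs1 ran from -0.7 to 0.21, Jak1 from -0.63 to 0.11 and Cish from -0.03 to 0.31. In Bcl11b- DN2a against Flt3- ETP, Socs1 was -0.13 with quantile normalization, -0.03 without a kit term, -0.1 in NEBNext libraries alone and -0.12 to 0.43, Jak3 was 0.09 without a kit term, and Socs3 ran from -0.73 to 0.14. In Bcl11b+ against Bcl11b- DN2a, Jak1 was 0.0 by edgeR, 0.01 by DESeq2 and -0.25 to 0.09. In Bcl11b- DN2a against total ETP, Jak1 was -0.1 with quantile normalization, -0.06 without a kit term and -0.15 to 0.13, and Jak3 was -0.48 without a kit term. In Bcl11b+ DN2a against Flt3+ ETP, Socs3 was 0.08 with quantile normalization, 0.15 without a kit term, 0.17 and 0.22 with a replicate block by number and by series, 0.11 by edgeR, 0.15 by DESeq2 and -0.25 to 0.18, and Socs1 was -0.11 in NEBNext libraries alone and -0.09 to 0.81. In the first 10x step, Jak3 was 0.05 after thinning, and Socs1 was -0.06 after thinning, -0.01 without CD3-gene and granulocyte-marker cells and -0.2 with classes by 2 or more UMIs.

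The kit, population and series are partly bound together, total ETP occurs in 1 series only, and 2 or 3 libraries a group limit the precision. In the 10x data the Flt3 class holds few UMIs of the feedback genes.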
